A study of Mus musculus with 14 samples.

Results

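The 33 genes described here encode the enzymes that turn glucose into pyruvate, the transporters that bring glucose into the cell, the enzymes that set or branch off the flow, and the transcription factors Hif1a and Myc. They were chosen by gene symbol from the 26683 symbols of the count table, and all 33 were found and passed the filter on low counts. RNA was sequenced from splenic CD4 T cells of female mice aged 8 months. The groups were Tfh cells of TC mice (3 libraries), Tfh cells of B6 mice (4 libraries), Tn cells of TC mice (3 libraries) and Tn cells of B6 mice (4 libraries), with both cell types taken from each of 7 mice. TC stands for B6.NZM-Sle1NZM2410/AegSle2NZM2410/AegSle3NZM2410/Aeg/LmoJ, a lupus-prone line with intervals of NZM2410 origin (Sle1, Sle2 and Sle3) on a B6 background, and B6 is C57BL/6J. Follicular helper T cells (Tfh) help B cells in germinal centres, and here were sorted as CD4+CD44+ cells with low or no CD162 and with PD-1. Naive T cells (Tn) were sorted as CD4+CD44- cells. No treatment is named in the labels, and their wording of WT and KO names no deleted gene. The comparisons ask how glycolytic transcripts differ between helper and naive cells, and between a lupus-prone strain and its control.

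Glycolysis splits glucose into pyruvate in a preparatory phase that spends ATP and a payoff phase that yields ATP and NADH. Hexokinase, phosphofructokinase and pyruvate kinase catalyse its irreversible steps, and most steps have several isozymes encoded by separate genes. In T cells, glycolysis is known to increase on activation, with Myc and Hif1a, the oxygen-regulated subunit of hypoxia-inducible factor, among the transcription factors that switch on its genes. Resting naive T cells rely mainly on oxidative metabolism.

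Libraries held 15162309 to 20191558 counts. Levels are given in CPM, the usual count scaled to library total and here also to library composition, and ± marks the SD over n = 3 TC or n = 4 B6 libraries. The 7 Tfh marker genes summed to 2070 to 2440 CPM in TC Tfh, 2460 to 2780 CPM in B6 Tfh, 144 to 162 CPM in TC Tn and 143 to 173 CPM in B6 Tn, which follows the titles and not the source label of the Tn samples, which names Tfh. The 5 regulatory T cell genes summed to 2360 to 2820 CPM in TC Tfh and 1750 to 2140 CPM in B6 Tfh, against 88 to 127 CPM in TC Tn and 89.7 to 132 CPM in B6 Tn. The 9 B cell genes summed to 71.9 to 99.9 CPM in TC Tfh and 107 to 117 CPM in B6 Tfh, against 1.21 to 2.23 CPM in TC Tn and 1.40 to 2.53 CPM in B6 Tn. Most of the Tfh sums came from Cd22 (58.4 CPM in TC, 92.1 in B6) and Pax5 (16.6 and 11.9). Cd79a averaged 0.397 CPM in TC Tfh, 0.597 in B6 Tfh, 0.464 in TC Tn and 0.517 in B6 Tn. Only 5 of the 9 could be tested, and 4 were higher in Tfh in each strain. The 10 proliferation genes summed to 83.9 to 100 CPM in TC Tfh and 94.5 to 127 CPM in B6 Tfh, against 12.5 to 18.8 CPM in TC Tn and 16.9 to 19.7 CPM in B6 Tn. The 12 myeloid genes, with most of their sum from Cst3, stayed at or below 84.6 CPM and the 9 erythroid genes at or below 2.7 CPM in every library. Whether these sums stand for other cells in the sorts was not tested, nor was their part in the differences below. In bulk RNA, a change in the number of cells of a type and a change in RNA per cell cannot be told apart.

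Most glycolytic genes stood higher in Tfh than in Tn cells in both strains. In TC mice 19 members were higher (57.6%, against 33.7% of the 13427 genes tested) and 9 lower (27.3%, against 32.4% of all genes), while 5 were not called. In B6 mice 21 members were higher (63.6%, against 36.9% of all genes) and 9 lower (27.3%, against 33.3%), while 3 were not called. The share lower was therefore near that of all genes and the share higher was above it. The median log2 fold change of Tfh over Tn among members was 0.47 in TC and 0.41 in B6, against -0.01 and 0.02 over all genes tested. Calls were made with the quasi-likelihood test of edgeR, at 0.05 after Benjamini-Hochberg adjustment. The scale of the comparison was set by TMM: with library totals alone, the median over all genes stood at 0.10 in TC and 0.15 in B6, and the share of called genes that were higher was 61.4% and 65.5%, against 51% and 52.6% with TMM.

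**Figure D1:**
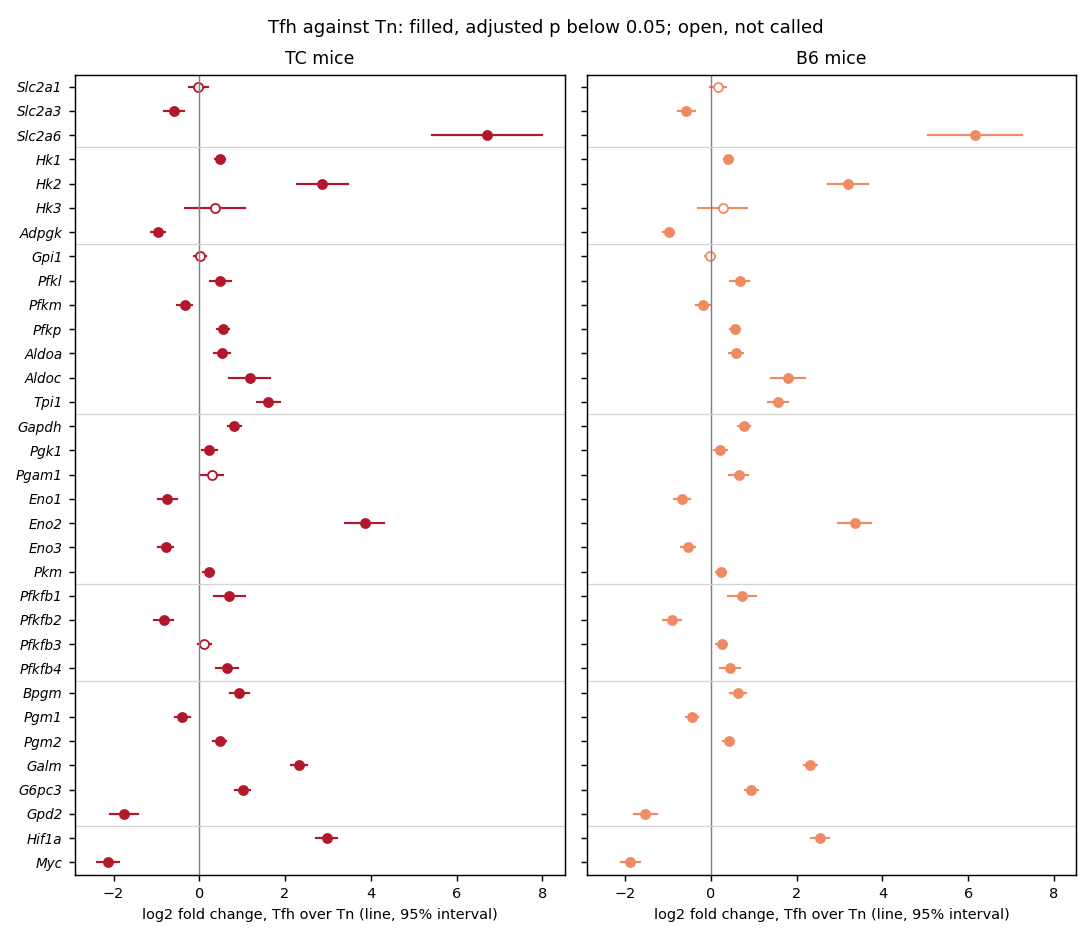
Log2 fold change of Tfh over Tn for the 33 members in TC mice (left) and B6 mice (right), ordered by role from transporters at the top to Hif1a and Myc at the bottom. Points are edgeR estimates, lines 95% intervals and filled points calls at an adjusted p below 0.05. Slc2a6, Eno2, Hk2, Hif1a and Galm lie farthest to the right in both strains, and Myc and Gpd2 farthest to the left.

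Among the glucose transporters, Slc2a6 (GLUT6, an intracellular hexose transporter) was the member with the widest contrast. It had 15.6, 8.08 and 14.8 CPM in TC Tfh and 16.1, 8.09, 8.41 and 9.05 CPM in B6 Tfh, against 0.0556, 0.127 and 0.167 CPM in TC Tn and 0.412, 0.0578, 0.0585 and 0 CPM in B6 Tn. No Tfh library overlapped a Tn library. The Tn groups held only 6 counts in TC and 10 counts in B6, so the ratio of summed counts is loose. It was 112 in TC (exact 95% counting interval 51.3 to 307) and 74.8 in B6 (40.4 to 156). These intervals pool the libraries of a group, so they leave out how mice differ. Library 1 gave 8 of the 10 B6 Tn counts. With each library left out in turn, the edgeR log2 fold change ranged from 5.76 to 7.85 in B6 (6.16 with all libraries). In TC it ranged from 6.37 to 7.07 (6.71 with all libraries). Slc2a3 (GLUT3), a high-affinity transporter, went the other way. It averaged 58.6 ± 10.4 CPM in TC Tfh against 88.4 ± 8.15 in TC Tn, and 50.8 ± 4.41 CPM in B6 Tfh against 75.9 ± 3.37 in B6 Tn, a 1.51-fold and a 1.49-fold lower level without overlap in either strain. Slc2a1 (GLUT1), the transporter raised on T cell activation, was not called: it averaged 43.3 ± 4.37 CPM in TC Tfh against 43.9 ± 5.17 in TC Tn (ratio 0.986, 95% interval 0.849 to 1.15), and 53.4 ± 6.54 CPM in B6 Tfh against 47.7 ± 1.57 in B6 Tn (ratio 1.12, 0.986 to 1.27). Without B6 Tfh library 1, the B6 difference was called (log2 fold change 0.23, adjusted p = 0.0176 in edgeR), as it was with library totals alone (0.29, adjusted p = 0.00371).

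The hexokinases, which trap glucose by phosphorylation, split by isozyme. Hk2, the inducible hexokinase, had 3.71, 3.28 and 4.95 CPM in TC Tfh against 0.667, 0.445 and 0.501 in TC Tn. In B6 it had 5.26, 6.14, 8.41 and 6.55 CPM in Tfh against 0.619, 0.983, 0.702 and 0.561 in Tn. Every Tfh library lay above every Tn library, and the level was 7.30-fold higher in TC (95% interval 4.83 to 11, edgeR adjusted p = 7e-08) and 9.16-fold higher in B6 (6.61 to 12.7, adjusted p = 4.7e-10). Hk1, the constitutive isozyme, was far more abundant and rose less: it averaged 266 ± 8.61 CPM in TC Tfh against 191 ± 9.11 in TC Tn (1.39-fold), and 296 ± 16.4 CPM in B6 Tfh against 223 ± 7.22 in B6 Tn (1.32-fold). Hk3 was below 2 CPM in every library and not called. Adpgk, which uses ADP in place of ATP to phosphorylate glucose, fell to 43.7, 39.5 and 38.5 CPM in TC Tfh, against 80.7, 79.9 and 77.7 in TC Tn. In B6 it had 31.8, 39, 35.5 and 39.5 CPM in Tfh, against 70.7, 76, 67.7 and 74.8 in Tn. The groups did not overlap, and the level was 1.96-fold lower in TC (edgeR adjusted p = 2.67e-09) and 1.98-fold lower in B6 (adjusted p = 1.96e-10). Exons of Adpgk share 194 bases with Bbs4 on the opposite strand, and whether the counting used strand is not given in the sources used here.

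In the preparatory phase after hexokinase, 5 of 7 members were higher in Tfh, 1 was lower and 1 was not called, in each strain. The shares of all genes tested were 33.7% higher and 32.4% lower in TC, and 36.9% higher and 33.3% lower in B6. Tpi1, which interconverts the triose phosphates, stood out. It had 91, 58.7 and 80.4 CPM in TC Tfh against 27.4, 25 and 23.2 in TC Tn, and 98.8, 113, 117 and 112 CPM in B6 Tfh against 37.6, 38, 38.8 and 34.4 in B6 Tn. The lowest Tfh library, TC mouse 2, was still above every Tn library, and the level was 3.05-fold higher in TC (95% interval 2.52 to 3.69, edgeR adjusted p = 3.55e-08) and 2.96-fold higher in B6 (2.53 to 3.47, adjusted p = 4.13e-09). Aldoc, a minor aldolase, was 2.26-fold higher in TC and 3.47-fold higher in B6, at under 12 CPM in every library. Aldoa, the main aldolase, was 1.44-fold higher in TC (508 ± 69.4 CPM in Tfh, 353 ± 7.90 in Tn) and 1.5-fold higher in B6 (656 ± 60.9 CPM in Tfh, 437 ± 21.1 in Tn). The phosphofructokinases, which commit sugar to glycolysis, diverged: Pfkp (1.48-fold in TC, 1.47-fold in B6) and Pfkl (1.41-fold and 1.59-fold) were higher in Tfh, and Pfkm, the muscle isozyme, was lower (1.27-fold in TC, 1.14-fold in B6). The B6 groups overlapped for Pfkm and its call did not hold without any 1 of B6 Tfh libraries 2, 3 or 4 or B6 Tn libraries 1 or 2 (adjusted p up to 0.171). With library totals alone its log2 fold change in B6 was -0.05 (adjusted p = 0.587), and the call was also lost at a count minimum of 50 (0.0512) and with only the groups compared (0.0543). Gpi1, glucose phosphate isomerase, was the member closest to no difference between cell types, at 282 ± 10.9 CPM in TC Tfh against 279 ± 0.498 in TC Tn (ratio 1.01, 95% interval 0.921 to 1.11) and at 434 ± 33.3 CPM in B6 Tfh against 442 ± 20.6 in B6 Tn (ratio 0.982, 0.906 to 1.06).

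In the payoff phase the enolases, which make phosphoenolpyruvate, differed in direction by isozyme. Eno2, the neuronal isozyme, had 15, 12.4 and 15.5 CPM in TC Tfh against 1.11, 0.763 and 1.06 in TC Tn. In B6 it had 16, 11.1, 12.8 and 11.4 CPM in Tfh against 1.65, 1.10, 1.35 and 0.898 in Tn. The groups were far apart, with a 14.4-fold higher level in TC (95% interval 10.6 to 19.8, edgeR adjusted p = 3.11e-11) and a 10.2-fold higher level in B6 (7.86 to 13.2, adjusted p = 1.01e-11). Eno1, the ubiquitous isozyme, fell 1.68-fold in TC (119 ± 8.16 CPM in Tfh, 200 ± 9.21 in Tn) and 1.60-fold in B6 (181 ± 29.1 CPM in Tfh, 291 ± 13 in Tn). Eno3, the muscle isozyme, fell 1.73-fold in TC and 1.45-fold in B6, and neither Eno1 nor Eno3 overlapped between cell types.

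Gapdh, which carries out the oxidative step, rose to 307, 248 and 277 CPM in TC Tfh, against 165, 156 and 151 in TC Tn. In B6 it had 328, 369, 345 and 349 CPM in Tfh, against 194, 197, 217 and 207 in Tn. Every Tfh library exceeded every Tn library, by 1.76-fold in TC (edgeR adjusted p = 1.52e-08) and 1.71-fold in B6 (adjusted p = 3.06e-09). The ATP-yielding enzymes moved little: Pkm, pyruvate kinase, was 1.16-fold higher in TC and 1.18-fold higher in B6, and Pgk1, phosphoglycerate kinase, 1.17-fold and 1.16-fold higher, with overlap of B6 libraries. The Pgk1 call in TC was lost without TC Tfh library 1 (adjusted p = 0.063) or TC Tn library 2 (adjusted p = 0.105). Pgam1, phosphoglycerate mutase, was 1.56-fold higher in B6 (19.6 ± 0.319 CPM in Tfh, 12.5 ± 1.23 in Tn). In TC it averaged 14.4 ± 2.96 CPM in Tfh and 11.8 ± 1.33 in Tn (1.22-fold, adjusted p = 0.0575 in edgeR). With mouse as a block it was called there too (adjusted p = 0.0164), as it was without TC Tfh library 2 (0.0163), TC Tfh library 4 (0.0177) or TC Tn library 1 (0.0336). The genome holds processed copies of Gapdh, Eno1, Pgk1 and other members of this phase, and how reads shared with them were counted is not given in the sources used here.

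**Figure D2:**
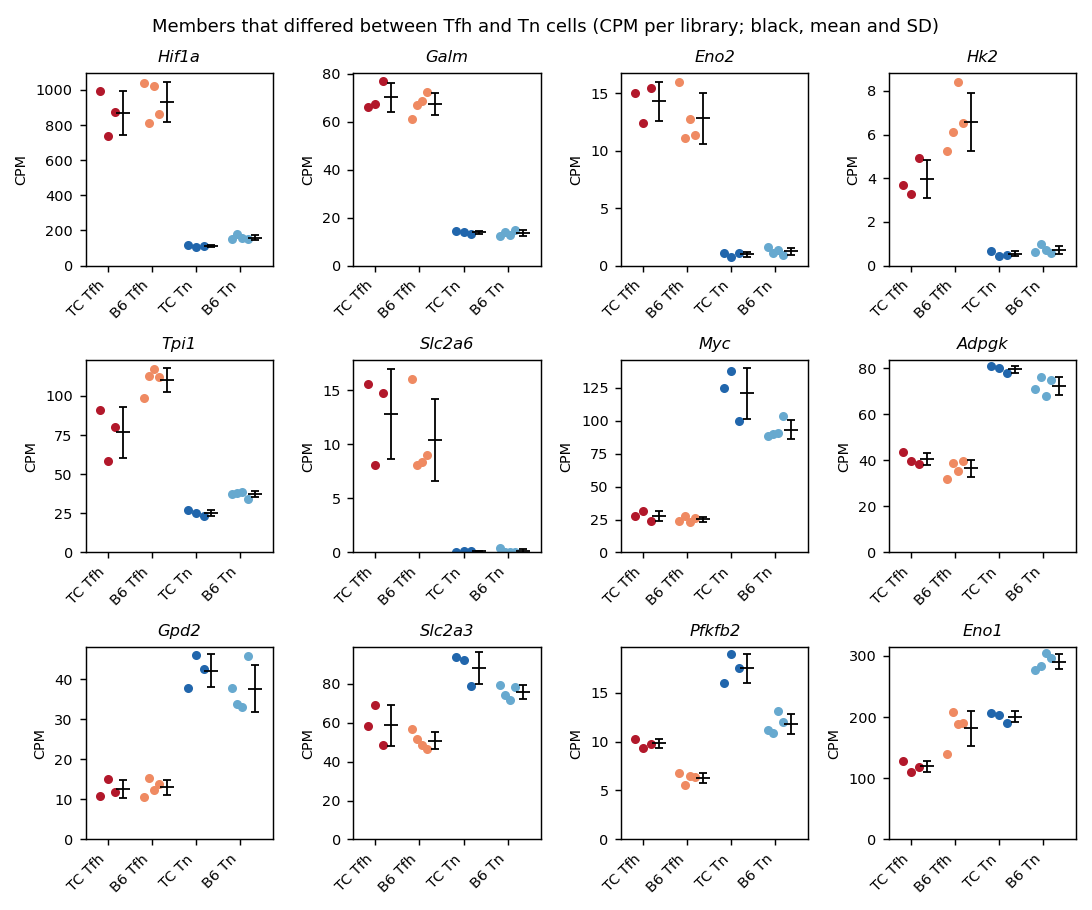
CPM in each library (coloured points, 1 per mouse, with group mean and SD in black) of 12 members that differed between Tfh and Tn cells. The first 6 panels show members higher in Tfh, such as Hif1a at 740 to 1040 CPM in Tfh and 106 to 178 CPM in Tn, and the last 6 members lower in Tfh, such as Myc at 23.5 to 31.5 CPM in Tfh and 88.3 to 138 CPM in Tn.

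The PFKFB enzymes make and remove fructose 2,6-bisphosphate, the main activator of phosphofructokinase. Pfkfb1 was 1.63-fold higher in TC Tfh and 1.66-fold higher in B6 Tfh than in Tn, and Pfkfb4 was 1.57-fold and 1.36-fold higher, with overlap of B6 libraries for Pfkfb4. Pfkfb2 was 1.78-fold lower in TC Tfh (9.80 ± 0.466 CPM, against 17.5 ± 1.52 in Tn) and 1.88-fold lower in B6 Tfh (6.30 ± 0.537 CPM, against 11.8 ± 0.970 in Tn). Pfkfb3, whose product strongly favours synthesis, was 1.19-fold higher in B6 Tfh and not called in TC, where it averaged 84.5 ± 0.652 CPM in Tfh and 78 ± 3.36 in Tn (1.08-fold, adjusted p = 0.147 in edgeR). With library totals alone and with only the groups compared it was called in TC (0.00593 and 0.0235).

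Enzymes at the branches moved in both directions. Galm, which converts beta-D-glucose to alpha-D-glucose and also serves galactose, had the smallest adjusted p of the 33 in both strains. It had 66.1, 67.5 and 77 CPM in TC Tfh against 14.6, 14 and 13.3 in TC Tn, and 61.3, 66.9, 68.5 and 72.3 CPM in B6 Tfh against 12.2, 13.9, 12.8 and 15 in B6 Tn. The 2 cell types were well separated, 5.02-fold in TC (95% interval 4.43 to 5.70, edgeR adjusted p = 1.32e-13) and 4.99-fold in B6 (4.48 to 5.57, adjusted p = 1.06e-14). G6pc3, a ubiquitous glucose-6-phosphatase, had 48.7, 49 and 47.5 CPM in TC Tfh against 27, 25.2 and 19.8 in TC Tn, and 45.6, 48.1, 44.8 and 43.8 CPM in B6 Tfh against 23.4, 24.9, 23.1 and 23.3 in B6 Tn. It was 2.02-fold higher in TC (edgeR adjusted p = 5.68e-09) and 1.92-fold higher in B6 (adjusted p = 1.36e-09) without overlap. Gpd2, the mitochondrial end of the glycerol phosphate shuttle, fell to 10.8, 15 and 11.7 CPM in TC Tfh, against 37.8, 46 and 42.5 in TC Tn. In B6 it had 10.6, 15.2, 12.4 and 13.7 CPM in Tfh, against 37.7, 33.8, 33 and 45.8 in Tn. It was 3.38-fold lower in TC (edgeR adjusted p = 4.82e-08) and 2.90-fold lower in B6 (adjusted p = 2.65e-08), again without overlap. Bpgm, which diverts carbon to 2,3-bisphosphoglycerate, was 1.91-fold higher in TC and 1.55-fold higher in B6. Of the phosphoglucomutases, which link glycolysis with glycogen, the gene named Pgm2 rose 1.39-fold in TC and 1.33-fold in B6, and the gene named Pgm1 fell 1.31-fold and 1.36-fold. These symbols are synonyms of each other in mouse annotations, so their values follow the symbols of the table.

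The 2 transcription factors moved in opposite directions. Hif1a had 992, 740 and 874 CPM in TC Tfh against 116, 106 and 112 in TC Tn, and 1040, 809, 1020 and 863 CPM in B6 Tfh against 152, 178, 158 and 150 in B6 Tn. The lowest Tfh library was far above the highest Tn library, with a 7.82-fold higher level in TC (95% interval 6.60 to 9.26, edgeR adjusted p = 1.15e-12) and a 5.83-fold higher level in B6 (5.05 to 6.73, adjusted p = 6.2e-13). Myc fell to 28.1, 31.5 and 23.7 CPM in TC Tfh, against 125, 138 and 100 in TC Tn. In B6 it had 24.2, 27.8, 23.5 and 26 CPM in Tfh, against 88.3, 90.2, 91.1 and 104 in Tn. It was 4.37-fold lower in TC (95% interval of the ratio 0.192 to 0.273, edgeR adjusted p = 3.04e-10) and 3.68-fold lower in B6 (0.234 to 0.316, adjusted p = 1.59e-10), without overlap.

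Counts for lists of genes tied to these factors stand here against 33.7% higher and 32.4% lower over all genes in TC, and 36.9% higher and 33.3% lower in B6. Among 9 oxygen-sensing partners of Hif1a, 4 were higher and 1 lower in Tfh in each strain. Egln3, a prolyl hydroxylase that marks Hif1a for degradation, stood at 32.1 ± 4.99 CPM in TC Tfh against 5.86 ± 0.536 in TC Tn, and at 57.6 ± 3.25 CPM in B6 Tfh against 2.43 ± 0.25 in B6 Tn. Arnt2, a dimerization partner, stood at 84.7 ± 18.7 CPM in TC Tfh against 0.207 ± 0.166 in TC Tn and at 75.7 ± 18.3 CPM in B6 Tfh against 0.496 ± 0.203 in B6 Tn. Epas1, which encodes the related factor HIF-2 alpha, was 10.4-fold lower in TC Tfh and 7.46-fold lower in B6 Tfh. Of 16 hypoxia-induced genes outside the glycolytic sequence that could be tested, 3 were higher and 7 lower in TC Tfh, and 2 higher and 8 lower in B6 Tfh. Their median log2 fold change was -0.28 in TC and -0.27 in B6. Slc16a3, the lactate exporter MCT4, was 11.5-fold higher in TC Tfh and 13.2-fold higher in B6 Tfh, and Pdk1, which restrains pyruvate entry into mitochondria, was 5.11-fold lower in TC and 6.86-fold lower in B6. Of 15 growth genes known as Myc targets, 14 were lower and 1 higher in Tfh in each strain, with a median log2 fold change of -0.70 in both. The exception, Odc1, stood at 187 ± 42.7 CPM in TC Tfh against 29 ± 9.05 in TC Tn. In B6 it stood at 213 ± 30.6 CPM in Tfh against 39.1 ± 4.75 in Tn.

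Of the 22 other glycolytic isozymes and sugar transporters found in the table, 6 passed the filter on low counts, with 1 higher and 3 lower in Tfh in each strain. Slc2a8 (GLUT8) was 2.07-fold higher in TC Tfh and 2.60-fold higher in B6 Tfh, and Tigar, which lowers fructose 2,6-bisphosphate, was 1.39-fold lower in TC and 1.46-fold lower in B6. Of 20 tested genes of hexose entry and glycogen metabolism, 9 were higher and 5 lower in TC Tfh and 11 higher and 5 lower in B6 Tfh. Over all genes, 33.7% were higher and 32.4% lower in TC Tfh, and 36.9% higher and 33.3% lower in B6 Tfh. Pygm, a glycogen phosphorylase, was 4.30-fold lower in TC Tfh and 4.41-fold lower in B6 Tfh.

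Promoter sequences are shown because Hif1a and Myc, which differed in opposite directions, both bind motifs built on ACGTG. The hypoxia response core is ACGTG, and the E-box of Myc is CACGTG, which holds an ACGTG on each strand. RefSeq gave promoters on GRCm38.p6 for 30 of the 33 members (47 windows of 250 bases before a transcript start), with none used for Slc2a3, Galm and Myc. ACGTG was found on either strand in windows of 16 of the 30 members (53.3%), against 25.2% of the tested genes with a promoter and 18.5% of all genes with one. CACGTG was found in 5 of the 30 members (16.7%), against 9.88% of the tested genes and 6.86% of all genes. A gene with more windows has more chances of a match, so shares of windows are given too. ACGTG was in 42.6% of the 47 member windows, against 21.6% of windows of tested genes and 16.6% of all windows. For CACGTG these shares were 10.6%, 8.22% and 6.02%. Split by call in B6, ACGTG was present in 9 of 20 members higher in Tfh (45%), 5 of 7 lower in Tfh (71.4%) and 2 of 3 not called. A match is a run of letters, and occupancy by either factor was not measured. Shown 5′ to 3′ on the strand of the gene, with ACGTG or its reverse complement CACGT in capitals, are Hk2, G6pc3 and Pgk1 as members higher in Tfh that hold ACGTG, Adpgk as a member lower in Tfh that holds it, and Eno2 as a member higher in Tfh with no match in this window.
Hk2, minus strand, chr6:82774455-82774704: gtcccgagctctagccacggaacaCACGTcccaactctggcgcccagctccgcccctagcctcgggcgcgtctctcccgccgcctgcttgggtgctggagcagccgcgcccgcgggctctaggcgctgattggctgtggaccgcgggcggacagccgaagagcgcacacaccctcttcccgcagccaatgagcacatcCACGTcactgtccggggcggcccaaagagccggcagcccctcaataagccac
G6pc3, plus strand, chr11:102189449-102189698: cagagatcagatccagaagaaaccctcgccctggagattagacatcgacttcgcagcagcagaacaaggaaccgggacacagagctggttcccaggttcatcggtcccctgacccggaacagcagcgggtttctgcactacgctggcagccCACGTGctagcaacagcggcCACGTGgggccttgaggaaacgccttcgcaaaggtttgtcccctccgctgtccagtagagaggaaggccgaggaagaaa
Pgk1, plus strand, chrX:106186850-106187099: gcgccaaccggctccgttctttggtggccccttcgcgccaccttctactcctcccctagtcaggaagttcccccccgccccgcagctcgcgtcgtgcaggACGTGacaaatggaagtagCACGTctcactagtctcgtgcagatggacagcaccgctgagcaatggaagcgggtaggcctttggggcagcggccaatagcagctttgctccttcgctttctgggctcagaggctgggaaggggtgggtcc
Adpgk, plus strand, chr9:59291322-59291571: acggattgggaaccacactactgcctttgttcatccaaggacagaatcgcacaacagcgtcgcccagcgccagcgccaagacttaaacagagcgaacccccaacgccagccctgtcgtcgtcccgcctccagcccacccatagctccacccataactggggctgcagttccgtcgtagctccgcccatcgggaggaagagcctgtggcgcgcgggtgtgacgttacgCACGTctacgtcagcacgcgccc
Eno2, minus strand, chr6:124769674-124769923: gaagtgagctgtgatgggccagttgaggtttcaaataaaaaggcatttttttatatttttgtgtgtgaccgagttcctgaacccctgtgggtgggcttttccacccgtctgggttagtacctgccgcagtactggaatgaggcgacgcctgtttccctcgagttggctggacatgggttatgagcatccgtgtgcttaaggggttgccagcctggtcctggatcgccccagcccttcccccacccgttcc
The ACGTG matches of Hk2 lay 226 and 52 bases before the start, those of Pgk1 150 and 131 bases and that of Adpgk 23 bases before it. G6pc3 held both of its matches as full E-boxes, the first letters of which lay 99 and 79 bases before the start.

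Levels can be set against each other only per length of transcript. In CPM per kilobase of exon (RPKM), Aldoa was highest of the 33 in all 4 groups, at 174 ± 23.8 in TC Tfh, 225 ± 20.9 in B6 Tfh, 121 ± 2.71 in TC Tn and 150 ± 7.26 in B6 Tn. Hif1a ranked second in Tfh (147 ± 21.4 in TC, 158 ± 18.9 in B6) and below Gpi1 and Gapdh in Tn (18.8 ± 0.879 in TC, 27.1 ± 2.17 in B6). With the longest transcript as length, Hif1a stood behind both Aldoa and Pkm in Tfh. The 33 members together summed to 854.7 ± 79.9 RPKM in TC Tfh, 1034 ± 38.2 in B6 Tfh, 602.5 ± 14.5 in TC Tn and 726.6 ± 19.2 in B6 Tn. These sums hold the transcription factors too. From Tn to Tfh, Hif1a alone went from 18.8 to 147 RPKM in TC and from 27.1 to 158 in B6. Myc went from 44.5 to 10.2 and from 34.4 to 9.34. In both cell types every TC library summed below every B6 library.

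Among hexokinases, enolases and glucose transporters, the isozymes with the widest fold changes between cell types, Hk2, Eno2 and Slc2a6, held minor shares. Hk1 made up 96.7 ± 0.296% of hexokinase RPKM in TC Tfh, 95.9 ± 0.524% in B6 Tfh and 98.3% in both Tn groups, and Hk2 2.07 ± 0.459% in TC Tfh and 3.03 ± 0.422% in B6 Tfh. With the longest transcript as length, Hk2 made up 1.14% in TC Tfh and 1.68% in B6 Tfh. Eno1 remained the main enolase, at 65.3 ± 1.36% in TC Tfh, 76.6 ± 3.78% in B6 Tfh, 70.8 ± 2.64% in TC Tn and 83.1 ± 0.154% in B6 Tn. Eno2 made up 8.93 ± 0.690% in TC Tfh and 6.40 ± 2.00% in B6 Tfh, against 0.396 ± 0.0817% in TC Tn and 0.410 ± 0.117% in B6 Tn. Slc2a6 made up 16.3 ± 4.78% of the 3 transporters in TC Tfh and 12.7 ± 4.51% in B6 Tfh, against 0.152 ± 0.0866% in TC Tn and 0.166 ± 0.232% in B6 Tn. Pfkfb3 was the main PFKFB enzyme, at 59.8 to 65.1% of group means.

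**Figure D3:**
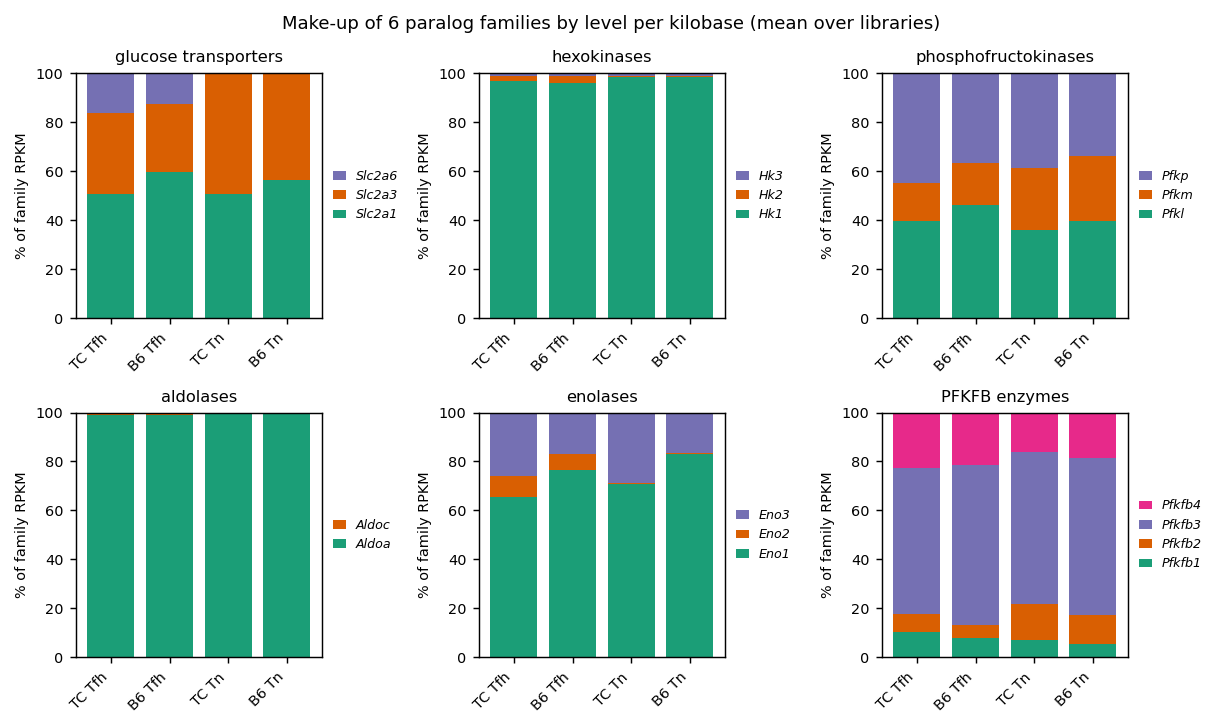
Stacked bars of the mean share of each isozyme in the RPKM of its family, for TC Tfh, B6 Tfh, TC Tn and B6 Tn. Hk1 and Aldoa fill nearly all of their families in every group, whereas Slc2a6 and Eno2 take a visible share only in Tfh bars.

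Between strains, more members were called lower than higher in TC in both cell types, and many were not called. In Tfh cells 16 members were lower in TC (48.5%, against 25.5% of all genes tested) and 4 higher (12.1%, against 24.2%), while 13 were not called. In Tn cells 12 were lower (36.4%, against 26.1% of all genes) and 6 higher (18.2%, against 25.9%), while 15 were not called. Of these, 10 were lower in both cell types (Gpi1, Pgm1, Pgk1, Pkm, Eno1, Gapdh, Pgm2, Tpi1, Aldoa and Hk1) and 4 higher in both (Pfkp, Eno3, Pfkfb1 and Pfkfb2). The median log2 fold change of TC over B6 among members was -0.10 in Tfh and -0.13 in Tn, against -0.02 and -0.01 over all genes tested.

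**Figure D4:**
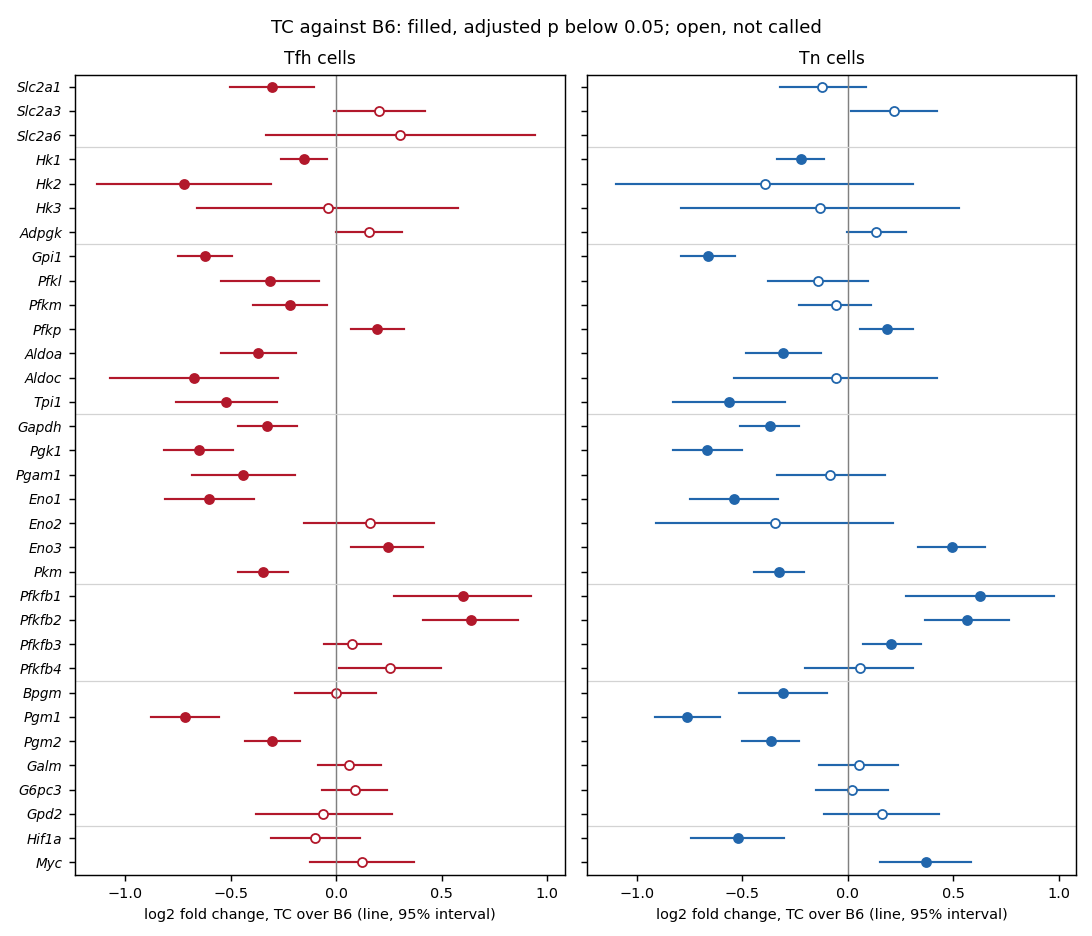
Log2 fold change of TC over B6 for the members in Tfh cells (left) and Tn cells (right), with points, lines and fills as in the plot of Tfh over Tn. Slc2a6 is left out of the Tn panel because its Tn groups held 6 and 10 counts. Gpi1, Pgm1, Pgk1, Eno1 and Tpi1 lie at -0.52 or below in both panels, and Pfkfb1 and Pfkfb2 at 0.57 or above in both.

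The clearest strain differences were in Gpi1 and Pgm1. Gpi1, which converts glucose 6-phosphate to fructose 6-phosphate, had 290, 269 and 286 CPM in TC Tfh against 391, 463, 425 and 457 in B6 Tfh. In Tn it had 279, 279 and 278 CPM in TC against 418, 446, 467 and 437 in B6. All TC libraries lay below all B6 libraries, 1.54-fold in Tfh (95% interval of the ratio 0.595 to 0.710, edgeR adjusted p = 5.86e-07) and 1.59-fold in Tn (0.577 to 0.689, adjusted p = 1.53e-07). Pgm1 had 13.7, 16.5 and 15.2 CPM in TC Tfh against 24.7, 25.9, 25.5 and 23.4 in B6 Tfh, and 20.1, 19.1 and 20.4 CPM in TC Tn against 35.8, 32.4, 35.3 and 31.4 in B6 Tn. It was 1.64-fold lower in TC Tfh (edgeR adjusted p = 1.49e-06) and 1.69-fold lower in TC Tn (adjusted p = 2.96e-07), without overlap. Exons of Gpi1 and Pgm1 share 741 and 398 bases with genes on the opposite strand (Gm26762 and Itgb3bp). Pgm2 had 54.4, 47.2 and 49.8 CPM in TC Tfh against 62.6, 61, 63.8 and 61.9 in B6 Tfh, and 36.9, 33.5 and 38.8 CPM in TC Tn against 50.3, 45, 48.5 and 43.9 in B6 Tn. It was lower in TC without overlap, 1.23-fold in Tfh (edgeR adjusted p = 0.000698) and 1.29-fold in Tn (adjusted p = 0.000146).

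Of the 7 enzymes of the payoff phase, 5 were lower and 1 higher in TC Tfh, and 4 lower and 1 higher in TC Tn. The shares of all genes tested were 25.5% lower and 24.2% higher in TC Tfh, and 26.1% lower and 25.9% higher in TC Tn. Pgk1, the first ATP-yielding enzyme, had 46.2, 38.6 and 43 CPM in TC Tfh against 58.3, 72.7, 66.3 and 70.9 in B6 Tfh, and 38, 34 and 37 CPM in TC Tn against 57, 60.3, 60 and 53.6 in B6 Tn. TC libraries lay below B6 libraries in both cell types, 1.57-fold in Tfh (edgeR adjusted p = 4.29e-06) and 1.59-fold in Tn (adjusted p = 2.65e-06). Eno1 had 128, 111 and 119 CPM in TC Tfh against 140, 208, 188 and 190 in B6 Tfh, and 207, 204 and 190 CPM in TC Tn against 277, 284, 305 and 297 in B6 Tn. It was 1.52-fold lower in Tfh (edgeR adjusted p = 0.000162) and 1.45-fold lower in Tn (adjusted p = 0.000278), and B6 mouse 1 gave the B6 Tfh library closest to TC. Pkm had 621, 527 and 576 CPM in TC Tfh against 706, 754, 730 and 737 in B6 Tfh, and 497, 484 and 502 CPM in TC Tn against 592, 631, 629 and 628 in B6 Tn. It was 1.27-fold lower in Tfh (edgeR adjusted p = 8.8e-05) and 1.25-fold lower in Tn (adjusted p = 0.000118), again with no overlap. Gapdh was 1.25-fold lower in TC Tfh (277 ± 29.4 CPM, against 348 ± 16.9 in B6) and 1.29-fold lower in TC Tn (157 ± 7.11 CPM, against 204 ± 10.6 in B6).

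Eno3 was the member of this phase that was higher in TC. It had 15, 15.2 and 15.5 CPM in TC Tfh against 12.4, 12.9, 12 and 14 in B6 Tfh, and 23.8, 26.9 and 28.2 CPM in TC Tn against 17.7, 18.3, 19.7 and 18.9 in B6 Tn. The strains did not overlap, and the level was higher in TC, 1.18-fold in Tfh (edgeR adjusted p = 0.0192) and 1.41-fold in Tn (adjusted p = 4e-05). With no filter on low counts, the Tfh call was lost (adjusted p = 0.084). Pgam1 was lower in TC Tfh (1.36-fold, 14.4 ± 2.96 CPM against 19.6 ± 0.319 in B6) and not called in Tn (ratio 0.944, 95% interval 0.791 to 1.13), and Eno2 was called in neither cell type.

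**Figure D5:**
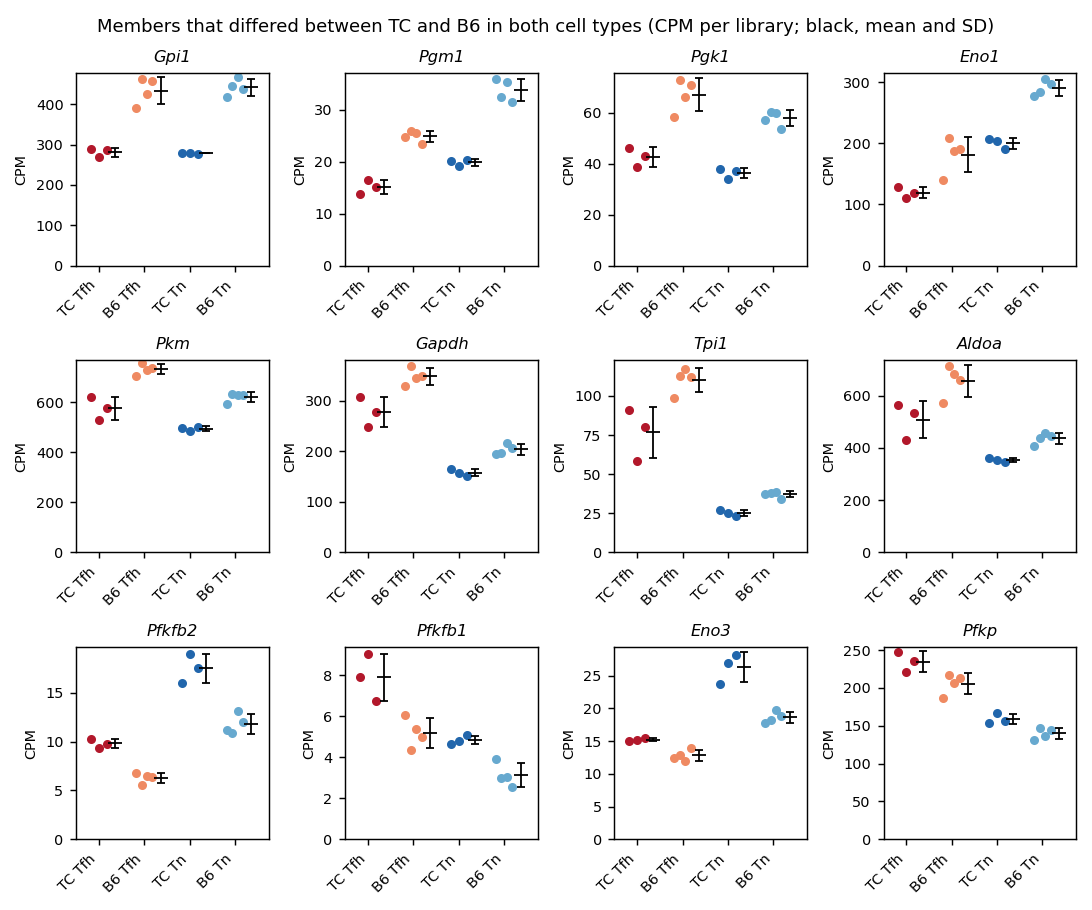
CPM in each library (coloured points, 1 per mouse, with group mean and SD in black) of 12 members that differed between TC and B6 in both cell types. In the first 8 panels the TC libraries lie below the B6 libraries of the same cell type, as for Gpi1 at 269 to 290 CPM in TC Tfh and 391 to 463 CPM in B6 Tfh, and in the last 4 above them.

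Upstream, Tpi1 had 91, 58.7 and 80.4 CPM in TC Tfh against 98.8, 113, 117 and 112 in B6 Tfh (1.43-fold lower, edgeR adjusted p = 0.00138) and was 1.48-fold lower in TC Tn (25.2 ± 2.14 CPM, against 37.2 ± 1.94 in B6). Aldoa had 562, 430 and 532 CPM in TC Tfh against 571, 712, 683 and 658 in B6 Tfh (1.29-fold lower, edgeR adjusted p = 0.00151), and was 1.24-fold lower in TC Tn. The TC library nearest to B6 differed from the lowest B6 library by little for both genes in Tfh, and TC mouse 2 was the lowest of all. Hk2 was 1.65-fold lower in TC Tfh (3.98 ± 0.863 CPM, against 6.59 ± 1.33 in B6) and Aldoc 1.60-fold lower (5.52 ± 0.828 CPM, against 8.83 ± 1.79 in B6), both without overlap and neither called in Tn. Slc2a1, Hk1, Pfkl and Pfkm were 1.23-fold, 1.11-fold, 1.24-fold and 1.16-fold lower in TC Tfh, and these calls depended on single libraries. Each was lost without TC Tfh library 2 (adjusted p = 0.0859, 0.134, 0.148 and 0.0874), without TC Tfh library 4 (0.0547, 0.105, 0.0812 and 0.057) and without B6 Tfh library 3 (0.0545, 0.137, 0.0822 and 0.0854). Without B6 Tfh library 4, Hk1, Pfkl and Pfkm were lost (0.0756, 0.0566 and 0.0624), without B6 Tfh library 2 Pfkl (0.0781), and without B6 Tfh library 1 or TC Tfh library 1 Pfkm (0.101 and 0.151). Processing mattered too: Hk1 and Pfkl were lost with only the groups compared (0.0637 and 0.103). Pfkm was lost with library totals alone (0.0564) and with an offset for transcript length (0.117). Hk1 was also 1.17-fold lower in TC Tn, where the call held without any 1 library.

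Pfkp, Pfkfb1 and Pfkfb2 were higher in TC in both cell types, Pfkfb3 was called higher in Tn alone and Pfkfb4 in neither. Whether the strain difference changed with cell type was tested as an interaction, which was called for none of them. Pfkfb2 had 10.3, 9.34 and 9.78 CPM in TC Tfh against 6.78, 5.54, 6.53 and 6.34 in B6 Tfh, and 16, 19 and 17.5 CPM in TC Tn against 11.2, 10.9, 13.1 and 12 in B6 Tn. It was higher in TC without overlap, 1.56-fold in Tfh (edgeR adjusted p = 0.000101) and 1.48-fold in Tn (adjusted p = 0.000101). Pfkfb1 was 1.52-fold higher in TC Tfh (7.89 ± 1.15 CPM, against 5.20 ± 0.725 in B6) and 1.54-fold higher in TC Tn (4.84 ± 0.206 CPM, against 3.12 ± 0.580 in B6). Pfkfb3 was 1.15-fold higher in TC Tn, a call lost without TC Tn library 2 (adjusted p = 0.069) or with an offset for transcript length (0.0504). Pfkp was 1.14-fold higher in both cell types, with calls lost in Tfh without TC Tfh library 1 (adjusted p = 0.0501) and in Tn without TC Tn library 2 (0.100) or B6 Tn library 1 (0.0561). With an offset for transcript length, the Pfkp difference was at log2 0.00 in Tfh and 0.04 in Tn. Its exons share 748 bases with Pitrm1 on the opposite strand, and those of Pfkfb2 share 1262 bases with Gm29427 on the same strand.

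Hif1a differed between strains in Tn cells, with 116, 106 and 112 CPM in TC against 152, 178, 158 and 150 in B6, a 1.44-fold lower level without overlap (edgeR adjusted p = 0.000487). In Tfh the strains overlapped, at 869 ± 126 CPM in TC and 931 ± 112 in B6 (ratio 0.934, 95% interval 0.807 to 1.08). Myc was 1.29-fold higher in TC Tn (121 ± 18.9 CPM, against 93.4 ± 7.11 in B6) with overlap of 1 TC library with B6, and was not called in Tfh (27.7 ± 3.94 CPM in TC, 25.4 ± 1.92 in B6). Bpgm was 1.24-fold lower in TC Tn with overlapping libraries, a call lost without TC Tn library 2 (adjusted p = 0.0872) or B6 Tn library 1 (0.0526). Slc2a3, Hk3, Adpgk, Pfkfb4, Galm, G6pc3, Gpd2, Eno2 and Slc2a6 were called in neither cell type between strains with the main settings. Slc2a3 was called higher in TC Tn with library totals alone, at a count minimum of 50, with only the groups compared and without TC Tn library 4. Adpgk was called there in the same settings except the last. In Tfh, Slc2a3, Adpgk, Pfkfb4 and G6pc3 were each called higher in TC under some alternative setting. For Galm, the 95% interval of the TC over B6 ratio was 0.943 to 1.16 in Tfh and 0.911 to 1.18 in Tn.

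Genes of the lists also differed by strain, where over all genes 25.5% were lower and 24.2% higher in TC Tfh and 26.1% lower and 25.9% higher in TC Tn. Ldha, which turns pyruvate into lactate, stood at 193 ± 15.4 CPM in TC Tfh against 402 ± 36.2 in B6 Tfh and at 291 ± 21.6 CPM in TC Tn against 601 ± 38.2 in B6 Tn, 2.08-fold and 2.06-fold lower in TC. Of 16 tested hypoxia-induced genes outside the sequence, Ldha among them, 8 were lower and 0 higher in TC Tfh, and 9 lower and 1 higher in TC Tn. Of the 15 Myc growth targets, which also hold Ldha, 5 were lower and 0 higher in TC Tfh. In TC Tn, 7 of the Myc growth targets were lower and 2 higher. Vhl, which targets Hif1a for degradation, was 1.65-fold lower in TC Tfh and 1.42-fold lower in TC Tn.

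Several properties of the TC libraries moved with strain. The 9 immediate early genes summed to 3410, 4240 and 1900 CPM in TC Tfh against 693 to 791 CPM in B6 Tfh, and to 2480, 3250 and 1280 CPM in TC Tn against 465 to 518 CPM in B6 Tn. These genes differed unevenly. Fos averaged 609 CPM in TC Tfh against 8.07 in B6 Tfh, and Jun 284 against 3.55. Egr1 averaged 277 CPM in TC Tfh against 246 in B6 Tfh, Ier2 87.6 against 75.3 and Nr4a1 128 against 94.3. In Tn, Fos averaged 453 CPM in TC against 6.98 in B6, and Egr1 120 against 124. Library totals were 15162309 to 18624762 in TC and 18215548 to 20191558 in B6. Ribosomal protein genes took 2.88 to 2.95% of counts in TC Tfh and 3.55 to 4.66% in B6 Tfh, and 6.13 to 6.67% in TC Tn and 7.98 to 9.37% in B6 Tn. The 12 myeloid genes summed to 40.5 to 48.5 CPM in TC Tfh against 54.6 to 84.6 CPM in B6 Tfh, and to 30.2 to 32.5 CPM in TC Tn against 44 to 53.9 CPM in B6 Tn. Most of each sum was Cst3, which averaged 44.4 CPM in TC Tfh, 57.2 in B6 Tfh, 25.2 in TC Tn and 37 in B6 Tn. Of the 5 myeloid genes tested, 5 were lower in TC Tfh and 3 in TC Tn. Of the 10 proliferation genes, 6 were lower in TC Tfh and 1 in TC Tn. Of the 5 regulatory T cell genes, 2 were higher in TC Tfh (Ctla4 and Ikzf2), and 1 was higher and 2 lower in TC Tn. Foxp3 was not called in Tfh (1.04-fold, edgeR adjusted p = 0.772), and in TC Tn Foxp3 was 1.45-fold and Il2ra 1.73-fold lower. The part of these properties in the strain differences was not tested. Without TC mouse 2, which had the highest immediate early sum in both cell types, 5 members were higher and 12 lower in TC Tfh, and 4 higher and 11 lower in TC Tn. Of the 13615 genes then tested, 2974 were higher and 2765 lower in TC Tfh, against 3249 and 3420 of 13427 with all mice. In TC Tn, 3021 were higher and 3017 lower, against 3477 and 3505 with all mice.

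Of the 33 members, 6 lie on chromosomes 1, 4 and 7, which carry Sle1, Sle2 and Sle3: Pfkfb2 on chromosome 1, Slc2a1, Pgm1 and Eno1 on 4, and Gpi1 and Aldoa on 7. Whether they fall inside the intervals is not given in the sources used here. In Tfh all 6 were called between strains, 5 lower and Pfkfb2 higher in TC, and in Tn 4 were lower and Pfkfb2 higher. Over all tested genes of chromosomes 1, 4 and 7, 22.9%, 28% and 29.9% were lower and 29.2%, 22.3% and 27% higher in TC Tfh. In TC Tn, 21.6%, 27.4% and 28.1% of them were lower and 29.2%, 24.8% and 29% higher. Of the 27 members on other chromosomes, 11 were lower and 3 higher in TC Tfh, and 8 lower and 5 higher in TC Tn. Gpi1 lies on mm10 at chr7:34201330-34230336, where 12 other tested genes lay within 1 Mb, 2 of them higher and 5 lower in TC Tfh, and 1 higher and 2 lower in TC Tn. For Pfkfb2, 7 of 14 such genes were higher and 1 lower in TC Tfh, and 5 higher and 2 lower in TC Tn. Genes higher and lower in TC Tfh numbered 6 and 5 of 20 around Slc2a1 and 2 and 1 of 7 around Pgm1. They numbered 5 and 6 of 21 around Eno1 and 21 and 26 of 68 around Aldoa. In TC Tn the same regions held 9 and 3, 2 and 1, 7 and 4, and 29 and 19.

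Whether the Tfh over Tn ratio differed between strains was tested as an interaction. No member was called in either direction in edgeR, against 0.953% of all genes called higher and 1.37% called lower in TC. At an unadjusted p below 0.05 there were 4 of 33 members, Hif1a, Bpgm, Eno3 and Pgam1, while 14.6% of all genes tested passed that mark. DESeq2 and a limma voom fit that took mouse as random also called 0 members, and edgeR with mouse as a fixed block called Bpgm alone. The Hif1a ratio was 1.34-fold higher in TC than in B6 (95% interval 1.09 to 1.65, edgeR adjusted p = 0.157), and without TC Tfh library 2 it was called (log2 difference 0.55, adjusted p = 0.0412). Among the partners of Hif1a, Egln3 was called: its Tfh over Tn ratio was 4.33-fold lower in TC (edgeR adjusted p = 7.87e-07), since it was lower in TC Tfh and higher in TC Tn than in B6. Txnip and Arrdc4, arrestins known to restrain glucose uptake, had ratios 2.26-fold and 2.86-fold lower in TC (edgeR adjusted p = 0.0403 and 0.0209).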

How the data were processed

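RNA was extracted from sorted Tfh and Tn cells of single mice and made into libraries with a stranded TruSeq kit, per the labels' protocols. The deposited table holds read counts per gene symbol and library. The authors aligned reads with STAR 2.7 to mm10 and used DESeq2, per the submitters' processing notes. Which program counted reads, on which annotation and with which strand setting is not given in the sources used here, so counts of overlapping and closely similar genes are uncertain.

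From these counts, genes were filtered with filterByExpr at a count minimum of 10 (13427 of 26683 kept), scaled by TMM and modelled in edgeR 4.0.16 (R 4.3.3, robust quasi-likelihood) with 1 mean per group. Adjusted p-values are Benjamini-Hochberg over all genes tested, and a gene was called below 0.05. The interaction is the TC minus B6 difference of log2 Tfh over Tn. RPKM used union exon lengths from GENCODE M21, and promoters came from RefSeq on GRCm38.p6. Intervals of count ratios cover counting error only, and the floor of 3 counts was 0.150 to 0.191 CPM in a library. The members, lists and tests were chosen with earlier results of these data known. Values in every library are given for up to 10 called members with the smallest adjusted p in each comparison between cell types or strains (the interaction called none), and other genes are named only from fixed lists, up to 4 by smallest adjusted p. Slc2a6 was added for its contrast, after its values were seen. Odc1, Egr1, Ier2 and Nr4a1, also from the lists, were likewise named after their values were seen.

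Same-numbered libraries come from the same mouse. Their deviations from group means correlated at 0.345, 0.131, 0.0466 and 0.25 in B6 and at 0.246, 0.247 and 0.318 in TC. Replicates differed beyond sampling noise in every pair (chi-square over its degrees of freedom 4.99 to 18.8). Alternatives were DESeq2 1.42.0, RLE size factors, library totals alone, no filter, a count minimum of 50, only the groups compared, mouse as a block in edgeR or in limma 3.58.1, an offset for transcript length, the longest transcript for RPKM and each library left out. Leaving out TC mouse 2 was added after seeing the data.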

Additional observations from a re-analysis of the deposited data

Results flagged for a closer look

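Of 66 groups of 4 libraries examined (33 members in 2 B6 groups), 5 held a library far from the other 3, where chance marks about 1 in 20 groups. B6 mouse 1 gave 4 of them. For Slc2a6 it had 16.1 CPM in Tfh, where the other B6 Tfh libraries had 8.09 to 9.05 CPM, and 0.412 CPM in Tn, where the others had 0 to 0.0585 CPM. For Pkm its Tn library had 592 CPM, below the 628 to 631 CPM of the other B6 Tn libraries, and for Pfkfb4 it had 14.1 CPM, above their 11.9 to 12.1 CPM. For G6pc3, B6 Tn library 2 had 24.9 CPM, above the 23.1 to 23.4 CPM of the others. TC groups held 3 libraries and were not examined in this way.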

How the results depend on the processing

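Of 1788 values recomputed for called members and for a set of uncalled ones, 1711 kept their direction and their side of the threshold, 49 lost the call, 15 gained it and 13 changed sign. No called value changed sign. The sign changes were all near 0: Gpi1 in Tfh over Tn of B6 at 0.11 (library totals alone), 0.03 (without B6 Tfh library 1) and 0.00 (without B6 Tn library 3), with a range of -0.05 to 0.03 over libraries left out. In TC, Gpi1 stood at -0.03 (no filter on low counts). Slc2a1 in TC stood at 0.09 (library totals alone), 0.00 (only the groups compared), 0.11 (without TC mouse 2), 0.07 and 0.02 (without TC Tfh library 2 or 4) and 0.03 and 0.02 (without TC Tn library 1 or 2), with a range of -0.12 to 0.07. Hif1a of TC over B6 in Tfh stood at 0.02 without TC mouse 2 or TC Tfh library 2, with a range of -0.19 to 0.02. Among the other uncalled members, 1093 recomputed values stayed uncalled, 94 of them with a changed sign, and 18 were called. The cause of these moves was not tested. Members called ranged with each library left out from 18 to 20 higher and 9 lower (Tfh over Tn in TC), 21 to 22 and 8 to 9 (B6), 3 to 6 and 12 to 15 (TC over B6 in Tfh), 4 to 7 and 11 to 12 (Tn), and 0 to 1 higher in the interaction. The replicate block, with mouse as a fixed term, added Pgam1 in TC and 1 member to the interaction (Bpgm, log2 0.30, adjusted p = 0.0368) and changed no other call of a member between cell types. Over all genes it called 302 higher and 434 lower in the interaction, against 128 and 184. DESeq2 called 266 and 267, limma voom with mouse as random 240 and 328, and without TC mouse 2 there were 83 and 74. Summed RPKM with the longest transcript was 1386 in TC Tfh, 1709 in B6 Tfh, 1024 in TC Tn and 1265 in B6 Tn. At a count minimum of 50, Hk3 was not tested. Depth limits Hk2, Hk3, Eno2 and Slc2a6 in Tn, which stood below 2 CPM.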
